A study of Mus musculus with 3 samples.

Results

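Ferroptosis is an iron-dependent form of cell death in which polyunsaturated membrane lipids are peroxidised. The levels of 10 genes of its defence and of iron handling were followed here in N1E-115 cells, a mouse neuroblastoma line with features of sympathetic neurons. They were chosen by name for lipid peroxide defence, glutathione supply, and iron import, storage and export, and all 10 had a row among the 24384 named genes of the count table. Poly(A) RNA was sequenced in 3 libraries of wild-type N1E-115 cells, labelled as neuroblasts at day 0 without treatment. All samples form 1 group, so the data describe levels in 1 line and the spread between its libraries. Nothing in the labels says whether the libraries came from separate cultures, and the spread and every p-value may therefore be technical.

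A cell limits lipid peroxidation along separate routes. GPX4, a selenoenzyme, reduces lipid peroxides with glutathione, and AIFM2 (also called FSP1) regenerates a lipid-soluble radical trap without glutathione. Iron enters with transferrin through the transferrin receptor, is stored in ferritin shells made of heavy and light chains, and leaves through ferroportin. When iron is scarce, iron regulatory proteins bind hairpins called iron-responsive elements: in a 5′ UTR they block translation, and in the 3′ UTR of the transferrin receptor they protect the mRNA.

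The hairpins that couple the iron genes to each other are shown first, because 4 of the 10 genes have annotated transcripts that carry them. Counts are per gene and do not separate transcripts with a hairpin from those without. A script searched the GENCODE UTRs of mm10 on the transcript strand for the 17 letters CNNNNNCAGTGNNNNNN in which the 5 bases on either side of the CAGTGN loop pair, G with T pairs included and 1 unpaired position allowed. Each sequence is printed as DNA, 5′ to 3′ on the transcript strand, with 6 flanking bases on each side and the loop in capitals. The 5′ UTR matches of both ferritin chains and of ferroportin, and the 4 matches in the 3′ UTR of the transferrin receptor, had all 5 pairs.
Fth1 5′ UTR, chr19:9982732-9982760, plus strand: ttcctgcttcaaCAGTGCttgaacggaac
Ftl1 5′ UTR, chr7:45459779-45459807, minus strand: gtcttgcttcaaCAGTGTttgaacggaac
Slc40a1 5′ UTR, chr1:45925465-45925493, minus strand: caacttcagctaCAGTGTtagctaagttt
Tfrc 3′ UTR, chr16:32631219-32631247, plus strand: aattatcggaagCAGTGCcttccataatt
Tfrc 3′ UTR, chr16:32631598-32631626, plus strand: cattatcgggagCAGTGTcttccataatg
Tfrc 3′ UTR, chr16:32631663-32631691, plus strand: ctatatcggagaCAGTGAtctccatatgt
Tfrc 3′ UTR, chr16:32631710-32631738, plus strand: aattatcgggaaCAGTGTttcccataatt

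With all pairs formed, the search found a match in 0.137% of 20505 genes with an annotated 5′ UTR and in 0.604% of 20850 genes with an annotated 3′ UTR. With 1 unpaired position allowed, these shares were 0.839 and 4.1%. The other 6 genes, Gpx4, Aifm2, Acsl4, Gclc, Nfe2l2 and Hmox1, had no match in either UTR. Among the other genes of the pathway lists described below, the search matched the 5′ UTR of Alas2 with all pairs. It matched the 3′ UTRs of Slc11a2, the iron carrier of endosomes, and of Bach1, Cisd2, Mboat2, Tfap2c and Vkorc1l1 with 1 unpaired position.

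The sequence that marks Gpx4 is a stop codon read as selenocysteine. A script looked for TGA in frame inside annotated coding regions and found it in 0.115% of 20807 genes. The Gpx4 site is printed below with the codon in capitals, beside that of Txnrd1, a selenoenzyme that keeps thioredoxin reduced.
Gpx4 coding region, chr10:80054725-80054751, plus strand: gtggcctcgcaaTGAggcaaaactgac
Txnrd1 coding region, chr10:82896025-82896045, plus strand: cagtctggctgcTGAggttaa
The Gpx4 codon was number 73 of 197 in one annotated transcript, and 129 of 253 and 33 of 157 in the other two.

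The libraries held 17731376, 13942014 and 15432235 estimated counts in replicates 1, 2 and 3. Levels are counts per 1000000 counts (CPM) of these totals, as mean ± SD over n = 3 libraries. One count was worth 0.0564 to 0.0717 CPM, and a count of 0 allows up to 3 counts, or 0.169 to 0.215 CPM, per library. These limits cover counting error only. In bulk RNA, fewer cells of a type and less RNA per cell cannot be told apart. All 10 listed markers of sympathoadrenal neurons, among them Th, Dbh, Phox2a and Hand2, had at least 1 CPM in every library. Of 8 macrophage markers none reached that level (summed 0.861 to 2.53 CPM per library), and the defining genes Ptprc, Adgre1 and Csf1r had no counts. Of 8 erythroid and 7 hepatocyte markers 2 (Hba-a1 and Epor) and 1 (Ttr) reached it, with Hbb-bs and Alb without counts; their summed levels were 2.85 to 6.17 and 2.72 to 2.82 CPM. Glial markers reached it in 3 of 7 cases, with Cnp at 40.3 CPM and Mog without counts, and a summed level of 40.3 to 50.4 CPM.

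All 10 genes were detected, which here means at least 1 CPM in every library, against 47.3% of all named genes. Of the 10, 6 had at least 100 CPM in every library, as did 9.23% of all named genes. Where genes of a list are called highest below, the order is that of CPM, which is not scaled for length, and the order per kb can differ. The median was 204 CPM over the 10 genes, 0.616 CPM over all named genes and 37.5 CPM over the detected ones. Together they took 0.364 to 0.396% of the counts of a library, and both ferritin genes alone 0.212 to 0.245%.

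**Figure D1:**
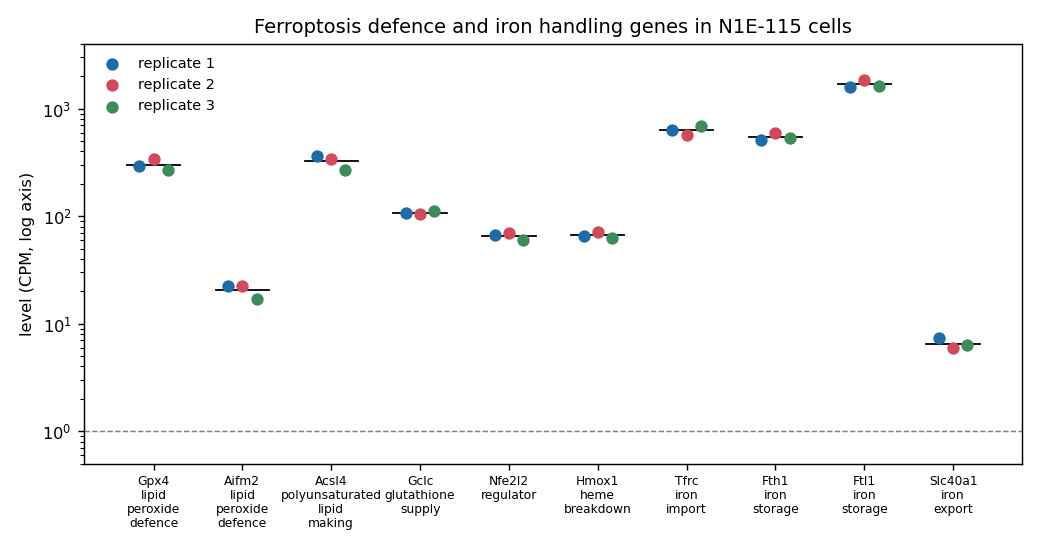
Level of each of the 10 genes (CPM, log axis) in replicates 1, 2 and 3 as points, with the mean of the 3 libraries as a bar and the detection minimum of 1 CPM as a dashed line. CPM is not scaled for length. Ftl1 lies at 1604 to 1855 CPM and Slc40a1 at 5.88 to 7.33 CPM.

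Ferritin storage genes were among the most abundant transcripts of the line. Ftl1, the light chain that forms the iron core (ENSMUSG00000050708.16; chr7:45457944-45459884, minus strand), had 28449, 25859 and 24984 counts, or 1604, 1855 and 1619 CPM. Fth1, the heavy chain that oxidises iron (ENSMUSG00000024661.7; chr19:9980598-9985098, plus strand), had 9118, 8240 and 8274 counts, or 514, 591 and 536 CPM. Both chains were highest in replicate 2 and lowest in replicate 1, and Ftl1 ranked 32 of all named genes by CPM (1693 ± 141) and Fth1 248 (547 ± 39.6). Fth1 counts were 0.323 times those of Ftl1 when summed over the libraries (exact Clopper-Pearson 95% interval 0.319 to 0.328, counting error only). Per kb of merged exons, which take in every annotated exon of a gene, the log2 ratio of Fth1 to Ftl1 was -3.01, -3.02 and -2.97. The merged exons of Fth1 (3469 nt) include retained introns, and with its principal coding transcript of 929 nt, the one APPRIS ranks first, the log2 ratio was -1.57 ± 0.03, a 2.97-fold excess of Ftl1. The Ftl1 excess held in 3 of 3 libraries under both lengths.

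Reads from copies limit the ferritin and Gpx4 levels. At 90% identity or more over at least 50% of the coding sequence, GENCODE lists 6 pseudogenes and 1 further gene like Ftl1, 1 pseudogene like Fth1 and 2 like Gpx4. None of them has a row under its GENCODE symbol, and older symbols of the copies were not looked up. How reads shared by a copy and its parent were counted is not given, so they cannot be told apart here. For Ftl1, 26.5% of its exon bases also lie under an unclassified gene model on the opposite strand, and 8.1% under a microRNA gene on its own strand. No count of the 10 genes was fractional at a tolerance of 0.01.

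The genes of ferritin turnover around them were also expressed. Ferritins included, 6 of 7 were detected, and the middle level was 399 CPM. Pcbp2 (686 ± 34.7 CPM) and Pcbp1 (399 ± 28.0 CPM), known as iron chaperones that deliver iron to ferritin, and Herc2 (142 ± 31.2 CPM), a ubiquitin ligase, had the highest CPM apart from the ferritins. Ncoa4, the receptor that sends ferritin to lysosomes, had 2289, 1902 and 2177 counts (136 ± 6.04 CPM), and lay above Herc2 per kb of merged exons (14.5 against 8.81 CPM per kb). Its log2 ratio to Fth1 per kb was -3.44 ± 0.10, and -4.14 with principal transcripts. Ftmt, the mitochondrial ferritin, had no counts.

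The iron importer was high and the iron exporter low. Tfrc, the transferrin receptor (ENSMUSG00000022797.16; chr16:32608920-32632794, plus strand), had 11162, 7892 and 10716 counts, or 630, 566 and 694 CPM. Slc40a1, which encodes ferroportin, the known iron exporter of vertebrate cells (ENSMUSG00000025993.10; chr1:45908068-45926523, minus strand), had 130, 82 and 98 counts, or 7.33, 5.88 and 6.35 CPM. Replicate 2 was the lowest for both. Tfrc stood above 99.2% of named genes in mean CPM and Slc40a1 above 59.1%. Per kb of merged exons, the log2 ratio of Tfrc to Slc40a1 was 6.96, 7.12 and 7.31, a mean 140-fold excess. With principal transcripts (4890 nt for Tfrc and 3370 nt for Slc40a1) the excess was 66.3-fold, since the merged exons of Slc40a1 reach 9000 nt. In counts it was 96.0-fold (exact interval 85.9 to 108). Fth1 exceeded Slc40a1 by 7.76 ± 0.26 in log2 per kb, in 3 of 3 libraries. Of the annotated Slc40a1 transcripts 1 holds the hairpin shown above.

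Partners of the exporter were at or near 0. Heph and Cp, the ferroxidases that load exported iron onto transferrin, had no counts in any library, and Hamp, the hormone that degrades ferroportin, had 1 count over the 3 libraries. Of the 5 genes of iron export only Slc40a1 was detected. On the import side 8 of 12 genes were detected, and the middle level of the 12 was 6.12 CPM. Slc11a2 was at 57.3 ± 0.965 CPM, Trf, the iron carrier transferrin, at 52.3 ± 2.05, and Steap3, a reductase that prepares endosomal iron for Slc11a2, at 41.3 ± 3.04. Steap2 had no counts and Steap4 had 2. The zinc and iron carrier Slc39a14 was at 38.9 ± 1.06 CPM, whereas its relative Slc39a8 had 1 count.

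All 3 genes of the regulatory system that reads the hairpins were expressed. Ireb2 (iron regulatory protein 2) was at 203 ± 15.1 CPM, Aco1 (iron regulatory protein 1, an aconitase when it holds an iron-sulfur cluster) at 56.0 ± 1.40 CPM, and Fbxl5, the iron-sensing factor that degrades Ireb2, at 46.4 ± 0.821 CPM. Aco1 was below Ireb2 per kb of merged exons in 3 of 3 libraries, with log2 ratios of -0.85, -0.67 and -0.82. The mean of -0.78 became -1.26 with principal transcripts, -2.1 with the mean length of coding transcripts and -1.85 without length scaling. All 11 genes of mitochondrial iron and iron-sulfur clusters were detected (median 39.2 CPM), with Cisd1 (103 ± 12.4) and Glrx5 (75.8 ± 8.34) the highest.

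**Figure D2:**
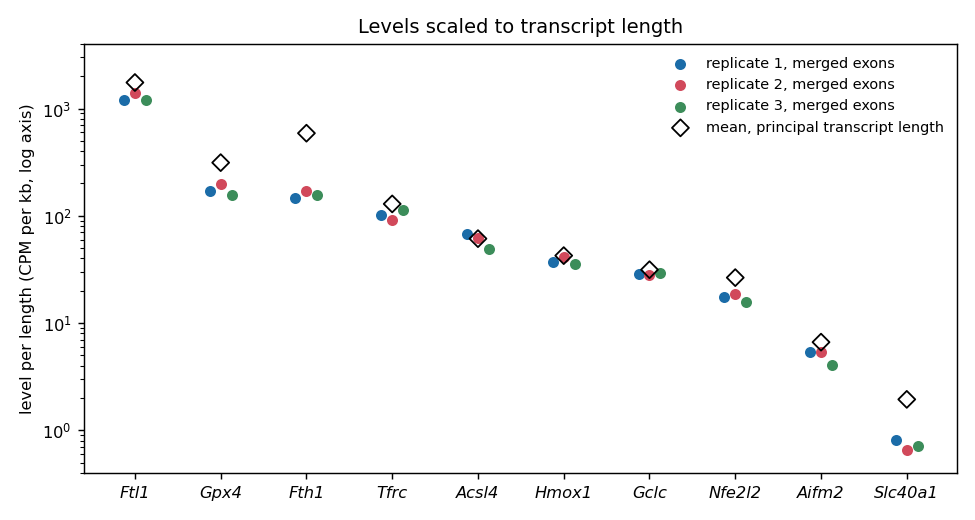
Level per length (CPM per kb, log axis) of the 10 genes in order of their mean, with points for each replicate over merged exons and open diamonds for the mean over the principal transcript. The largest shift between the lengths is that of Fth1, from 158 to 589 CPM per kb.

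Of both lipid peroxide defence genes, Gpx4 was the more abundant. Gpx4 (ENSMUSG00000075706.10; chr10:80047166-80056439, plus strand) had 5156, 4725 and 4182 counts, or 291, 339 and 271 CPM, and was highest in replicate 2. Aifm2 (ENSMUSG00000020085.15; chr10:61715263-61739260, plus strand) had 395, 310 and 260 counts, or 22.3, 22.2 and 16.8 CPM, and was lowest in replicate 3. Gpx4 exceeded Aifm2 by 4.96, 5.19 and 5.26 in log2 per kb of merged exons, or 35.2-fold (47.3-fold with principal transcripts). In counts the excess was 14.6-fold (exact interval 13.7 to 15.6). Aifm2 and H2afy2, a histone variant gene on the opposite strand, share 233 exon bases, or 5.7% of those of Aifm2, and the strand setting of the counting is not given in the sources used here.

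Of the other 13 genes listed for peroxide and lipid radical defence 10 were detected. Txnrd1 was at 453 ± 48.5 CPM and Prdx6, a peroxiredoxin that reduces phospholipid peroxides, at 381 ± 45.0 CPM. Gch1, the first enzyme of tetrahydrobiopterin synthesis, whose product also traps lipid radicals, was at 354 ± 63.0 CPM. Dhodh, a mitochondrial enzyme that reduces ubiquinone, was at 30.0 ± 3.03 CPM. Mgst1, a microsomal glutathione transferase, had 1 count and Gpx8, a peroxidase of the endoplasmic reticulum, 3 counts over the libraries. Tfap2c, a transcription factor, had none. Of 9 genes of selenium supply and of selenocysteine insertion at the TGA shown above 8 were detected, at a median of 14.8 CPM. Sephs2, which makes selenophosphate and is itself a selenoprotein, was at 80.7 ± 4.94 CPM, Lrp8, a receptor for selenoprotein P, at 46.3 ± 5.62, and the elongation factor Eefsec at 26.6 ± 1.70. Selenop, listed in the table as Sepp1, which carries selenium between tissues, had 4 counts and was the undetected one.

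Acsl4, which activates arachidonic and other polyunsaturated fatty acids for membrane lipids (ENSMUSG00000031278.12; chrX:142317993-142390535, minus strand), had 6463, 4706 and 4118 counts, or 364, 338 and 267 CPM. It was highest in replicate 1 and lowest in replicate 3. Acsl3, which activates monounsaturated fatty acids, was at 59.2 ± 4.59 CPM, and Acsl4 exceeded it by 2.13 ± 0.12 in log2 per kb, a 4.37-fold difference in 3 of 3 libraries. Of the 18 genes of polyunsaturated phospholipid making and oxidation 14 were detected (median 58.1 CPM). Scd2, a desaturase that makes monounsaturated fatty acids, was at 612 ± 122 CPM, and Agps of ether lipid synthesis at 215 ± 10.1 CPM. Por, a reductase that can start lipid peroxidation, was at 148 ± 9.96 CPM. The lipoxygenase genes Alox5, Alox12 and Alox15 had no counts in any library. Acsl3, Scd1 and Scd2 had fractional counts; why was not tested, and their levels are uncertain.

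Glutathione supply was represented by Gclc, the catalytic subunit of the enzyme that limits glutathione synthesis (ENSMUSG00000032350.9; chr9:77754535-77794485, plus strand). It had 1912, 1458 and 1706 counts, or 108, 105 and 111 CPM, the narrowest spread of the 10 genes (coefficient of variation 2.78%). Its modifier partner Gclm was at 71.1 ± 4.66 CPM, and the log2 ratio of Gclc to Gclm per kb of merged exons was 1.44, 1.3 and 1.28. The ratio turned to -0.35 when each gene was scaled to the mean length of its coding transcripts. Cystine enters in exchange for glutamate through a transporter made of Slc7a11 and Slc3a2. Slc7a11, the transport subunit, was at 59 ± 15 CPM (1309, 827 and 677 counts) and Slc3a2, a heavy chain shared with other amino acid transporters, at 313 ± 36.4 CPM. The log2 ratio of Slc7a11 to Slc3a2 was -4.41 ± 0.28 per kb of merged exons, lower in 3 of 3 libraries. It was -2.43 without length scaling, -4.77 with principal transcripts and -4.91 with the mean length of coding transcripts. In all, 13 of 14 genes of glutathione and cystine supply were detected (median 78.4 CPM), and Ggt1, a glutathione-cleaving enzyme of the cell surface, was not (0.624 CPM).

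Nfe2l2 encodes NRF2, the factor that induces antioxidant, glutathione and iron-storage genes (ENSMUSG00000015839.6; chr2:75675513-75704641, minus strand). It had 1185, 982 and 920 counts, or 66.8, 70.4 and 59.6 CPM. Keap1, the adaptor through which NRF2 is degraded, was at 43.6 ± 2.0 CPM, and the log2 ratio of Nfe2l2 to Keap1 per kb was 0.99, 0.99 and 0.69. Of the 12 regulators listed 11 were detected, with Sqstm1 (636 ± 85.7 CPM), a cargo receptor that binds KEAP1, Nfe2l1 (220 ± 30.5), a related factor, and Rbx1 (202 ± 14.6), a part of the ubiquitin ligase, the highest after leaving Nfe2l2 out. All 16 genes listed as NRF2 targets, most of them enzymes, were detected (median 89.4 CPM). Txnrd1, the pentose phosphate enzyme Pgd (172 ± 4.63 CPM) and the related enzyme Tkt (170 ± 9.21) had the highest CPM. Per kb of merged exons Taldo1, another pentose phosphate enzyme, lay above both (56.7 against 26.6 and 23.1 CPM per kb). Nqo1, a quinone reductase, was at 8.72 ± 0.968 CPM and Osgin1 at 1.63 ± 0.290 CPM. Both lay below the median of the list, and NRF2 activity was not tested.

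Hmox1, the inducible heme oxygenase that frees iron from heme and a target of NRF2 (ENSMUSG00000005413.8; chr8:75093621-75100589, plus strand), had 1159, 1003 and 967 counts, or 65.4, 71.9 and 62.7 CPM. The constitutive Hmox2 was at 56.2 ± 4.0 CPM. Hmox1 exceeded it per kb of merged exons by 0.68, 0.63 and 0.45 in log2, and the ratio turned to -0.35 with the mean length of coding transcripts. Of 14 genes of heme making and breakdown 13 were detected (median 38.0 CPM), with the heme carrier Slc48a1 (96.9 ± 3.99) and the synthesis enzyme Alad (78.7 ± 3.95) the highest apart from Hmox1. Alas2, the erythroid form of the first enzyme, had no counts, and its housekeeping form Alas1 was at 28.9 ± 3.09 CPM.

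**Figure D3:**
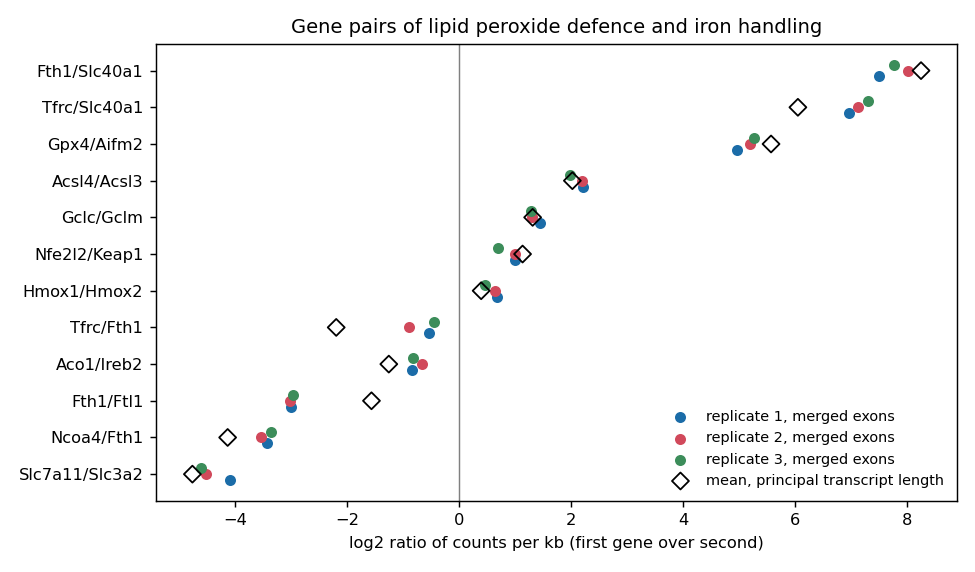
Log2 ratio of counts per kb for the 12 gene pairs, with a point for each replicate over merged exons and open diamonds for the mean over principal transcripts. The pairs run from Slc7a11/Slc3a2 at -4.41 to Fth1/Slc40a1 at 7.76, and no pair changes sign between replicates.

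Per kb of merged exons, all 3 libraries lay on the same side of 0 in each of the 12 pairs. With 3 libraries the exact two-sided sign-flip test cannot go below p = 0.25, which was its value for every pair (0.25 after Benjamini-Hochberg adjustment over the 12), so none could pass a threshold of 0.05. Tfrc against Fth1 was the pair whose direction turned without length scaling. Its log2 ratio was -0.63 ± 0.23 per kb of merged exons and -2.20 with principal transcripts. In counts without length it was 0.20 ± 0.23, with Tfrc higher in 2 of 3 libraries.

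In order of CPM per kb of merged exons the genes were Ftl1 (1263 ± 105), Gpx4 (174 ± 20.3), Fth1 (158 ± 11.4), Tfrc (102 ± 10.4), Acsl4 (59.8 ± 9.33), Hmox1 (38.1 ± 2.73), Gclc (28.6 ± 0.794), Nfe2l2 (17.3 ± 1.45), Aifm2 (4.96 ± 0.758) and Slc40a1 (0.725 ± 0.0822). The ranges of neighbours over the libraries overlapped for Gpx4 and Fth1 (157 to 197 and 148 to 170 CPM per kb), and for no other neighbours on this scale. With principal transcripts Fth1 (589 ± 42.6) moved above Gpx4 (313 ± 36.4), and the other 8 genes kept their place. The level over the principal transcript was more than 1.5 times that over merged exons for Slc40a1 (1.94 ± 0.220) and Nfe2l2 (26.5 ± 2.23) as well.

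Other genes ran at the levels of the top 3. By Euclidean distance of log2(CPM per kb + 0.1) over the 3 libraries among 23998 genes, Ftl1 was nearest to the ribosomal protein genes Rplp1 (distance 0.108; 1220 ± 135 CPM per kb) and Rps2 (0.119). Gpx4 was nearest to Pmp22 (0.0709) and Cd9 (0.0864), and Fth1 to Acot7 (0.0502) and Cct7 (0.0615). The distance describes levels in 3 libraries of 1 condition.

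None of the 10 genes was called as more variable between replicates than genes of like level. In an edgeR negative binomial deviance test over all 11821 genes that passed the low-count filter, 0.643% were called at a Benjamini-Hochberg adjusted p under 0.05, and 0 of the 10 genes; each had an adjusted p of 1. None of them passed 0.05 before adjustment either, against 5.9% of all tested genes. The dispersion trend was fitted on these same 3 libraries, so the test cannot show whether a gene varied at all. It asks only whether a gene varied more than others of like level. The lowest edgeR value before adjustment was 0.124, for Acsl4 (adjusted p = 1). With 1 choice changed at a time, 0 of the 10 were called as well, while the share of all tested genes called was 0.668% with DESeq2 size factors, 0.753% with library totals, 0.693% without a low-count filter, 0.981% with a common dispersion and 0.778% with the length trend taken out. It was 0.304, 0.335 and 0.433% without replicate 1, 2 and 3. At the background share a count of 0 among 10 says nothing particular about these genes. Of the 100 tested pathway genes beyond them, 0 were called and 5 had an unadjusted edgeR p under 0.05, again close to the background. Steap1, a metalloreductase relative (199, 148 and 72 counts), had the lowest adjusted edgeR p of them, 0.145, and passed with a common dispersion (adjusted p = 0.0148) and with the length trend taken out (adjusted p = 0.0475). Without replicate 3, its lowest library, the adjusted edgeR p was 1. The counts differed by 1.08-fold (Gclc) to 1.33-fold (Acsl4) between the highest and the lowest library after TMM scaling. The median coefficient of variation was 9.29% for the 10 genes and 9.8% for all detected genes.

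**Figure D4:**
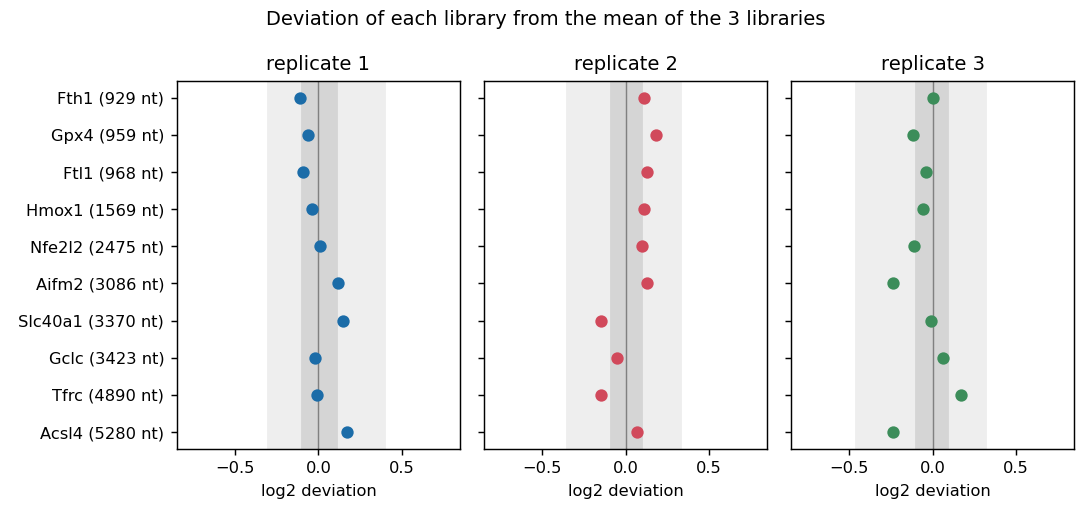
Log2 deviation of TMM-scaled CPM in each replicate from the mean of the 3 libraries, for the 10 genes ordered by principal transcript length. The shaded bands hold the central 50% and 95% of all tested genes; the points lie between -0.24 and 0.18.

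Replicate 2 was the highest library for 6 of the 10 genes after TMM scaling, and replicate 3 the lowest for 5. The matching shares of all tested genes were not counted, so these numbers only describe the 10 genes. Over all tested genes the median log2 deviation was 0.01 in replicate 2 and 0.0 in replicate 3. TMM scaling centres each library, so medians near 0 give no background for these numbers. Those highest in replicate 2 were Gpx4, Aifm2, Nfe2l2, Hmox1, Fth1 and Ftl1, with principal transcripts of 929 to 3086 nt. Aifm2 (3086 nt) was nearly level between replicates 1 and 2, with log2 deviations of 0.12 and 0.13. Before TMM scaling its CPM was 22.3 and 22.2 in these libraries. The lowest in replicate 2 were Tfrc, Gclc and Slc40a1, of 3370 to 4890 nt. Acsl4, with the longest principal transcript of the 10 (5280 nt), deviated by 0.07 in replicate 2. The central 50% of all tested genes lay between -0.09 and 0.1 there. With each library's trend over exon length and base composition taken out, the log2 deviation in replicate 2 went from 0.13 to 0.01 for Ftl1, from 0.18 to 0.07 for Gpx4 and from 0.11 to 0.02 for Hmox1. It moved less for Fth1 (0.11 to 0.08), Aifm2 (0.13 to 0.11) and Nfe2l2 (0.10 to 0.07), and stayed at -0.15 for Tfrc. The genes lowest in replicate 3 were Gpx4, Aifm2, Acsl4, Nfe2l2 and Hmox1. With the trend taken out, the log2 deviation in replicate 3 went from -0.12 to -0.03 for Gpx4 and from -0.06 to -0.03 for Hmox1. It went from -0.24 to -0.25 for Acsl4 and from -0.24 to -0.21 for Aifm2, and stayed at -0.11 for Nfe2l2. Hypoxia-induced genes were lower in the same library: their summed level was 442 CPM in replicate 3 against 738 and 635 CPM in replicates 1 and 2, over 10 genes. This list was chosen because the libraries were known to differ in it, so the difference is a description. The size of the difference varied within the list. Ndrg1 had 1060, 641 and 177 counts (5.06-fold between the highest and lowest library after TMM scaling). Vegfa differed by 1.13-fold, and Car9 had no counts. In the edgeR test 5 of the 9 tested genes of the list were called. The part of the length trend and of this library difference in the levels of the 10 genes was not tested further.

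**Figure D5:**
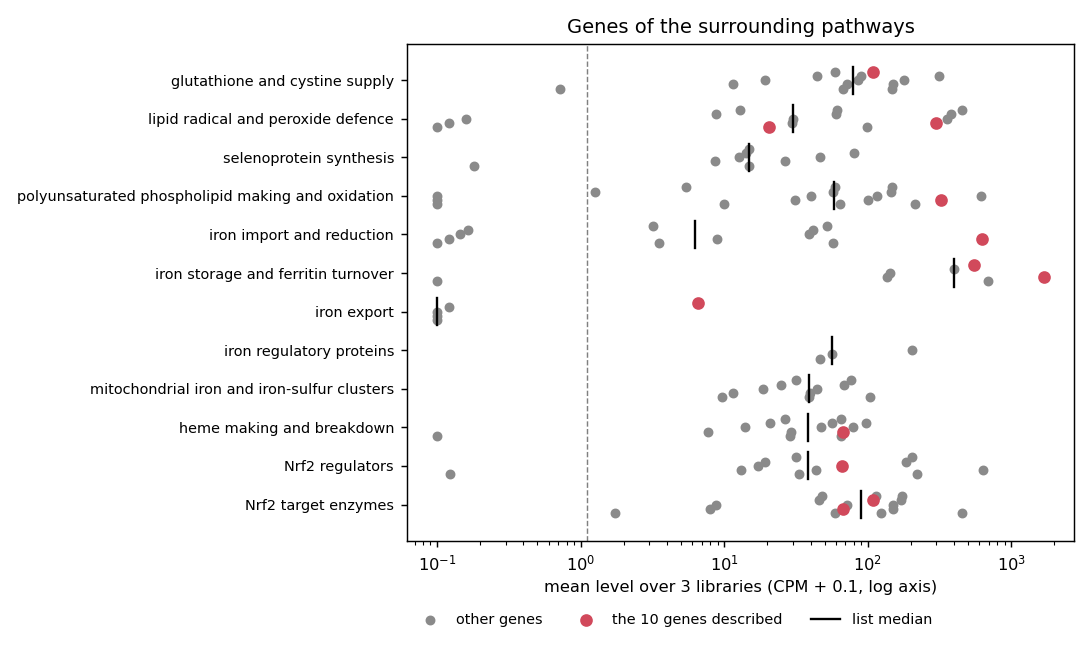
Mean level (CPM + 0.1, log axis) of every gene in the 12 lists of surrounding pathways, with the 10 genes described in red, other genes in grey, list medians as bars and 1 CPM as a dashed line. Iron export has Slc40a1 at 6.52 CPM and its other 4 genes near 0.

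Over the 12 lists, 109 of 129 genes were detected, at a median of 43.9 CPM, against 47.3% of all named genes. Detection was complete for the iron regulatory proteins, the mitochondrial iron genes and the NRF2 targets, and lowest for iron export (1 of 5) and iron import (8 of 12). The lists mix functions most cells have with genes of particular cell types, such as the erythroid Alas2, so the shares are a description.

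A promoter motif was also counted. The antioxidant response element core TGACNNNGC, on either strand, was searched in RefSeq windows of GRCm38.p6 from 250 bases before to 50 after each gene start. It occurred in 1 of the 7 genes with a window, Nfe2l2, and in 14% of 27025 genes. Hmox1, Gclc and Slc40a1 had no window and were not searched. These windows cover only the start of each gene.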

How the data were processed

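The authors deposited 1 column of estimated counts for each library, with a row per gene symbol. Per the submitters' processing notes STAR and mm10 were used; which program counted the reads, with which annotation and strand setting, is not given in the sources used here. Per the labels' protocols the kit was directional and poly(A)-selected. Counts were rounded to whole numbers; 27 of 24411 rows carry calendar dates for names, hold 0.281 to 0.306% of counts, and were left out. CPM used the totals of named genes. Lengths came from GENCODE M21 (mm10), matched to 98.4% of named genes. Pair ratios added 0.5 counts. Variation among the 3 libraries beyond a dispersion trend fitted on them was tested in R 4.3.3 with edgeR 4.0.16. The settings were an intercept-only fit, TMM, filterByExpr, trended dispersion and deviance against a chi-square with 2 degrees of freedom. Benjamini-Hochberg adjustment followed. The procedure was run on counts simulated from the same fitted means and dispersion trend, which cannot show whether its p-values hold for the real libraries. Alternatives used DESeq2 1.42.0 size factors, other lengths, filters and dispersions. Similar genes were found with BLAST+ 2.17.0; the rest used Python 3.11.15, SciPy 1.17.1 and pandas 2.3.3.

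Besides the 10 genes, those named are both genes of each pair, the 3 highest detected and first 2 undetected genes of each list, the 2 genes nearest in level to the top 3, and some others (among them Slc39a14, Alas1, Nqo1 and Dhodh), chosen after their values were seen. Some genes that this rule names are not reported here. The genes and lists were chosen with earlier results of these data known. No library was a copy of another: their counts differed by more than counting noise, with chi-square over degrees of freedom of 12 to 16.3, which does not show separate cultures.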

Additional observations from a re-analysis of the deposited data

Results flagged for a closer look

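The rows named by calendar dates lie outside the measurement. They hold 139035 estimated counts over the 3 libraries, more than the 3 counts per library that a count of 0 leaves possible. Every gene of the 12 pathway lists, the 10 genes included, was found under its own symbol or an older one, so none of them depends on these rows. With 3 samples no test for an outlying sample was made.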

How the results depend on the processing

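The number of detected genes (10), of those called for variation (0) and of pairs with a positive ratio in every library stayed within 1.5 times under the alternatives run. The principal transcript length was added after the data were seen. Reversed ratios were Tfrc to Fth1 without length scaling (0.20 in log2) and, with the mean length of coding transcripts, Gclc to Gclm (-0.35) and Hmox1 to Hmox2 (-0.35); for these lengths the cause was not tested. Over all genes, 76 were called for variation, 116 with a common dispersion, and 36 to 52 when 1 replicate was left out, where fewer samples entered the fit. Common dispersion, no filter, other scalings and each left-out replicate called 0 of the 10 genes, and with the length and GC trend removed Acsl4 had an unadjusted edgeR p of 0.0391 (adjusted p = 0.727). Length choices moved levels most: Fth1 ranged from 158 to 708 CPM per kb and Slc40a1 from 0.725 to 5.67. Depth limits the genes without counts. No paired analysis was possible because there was 1 group.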
